A study of Danio rerio with 4 samples.

Results

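The deposited peak matrix of nonCMs, the cells of the zebrafish heart other than cardiomyocytes, lists its nuclei in 4 runs of rows, each sorted by barcode, and the second run was compared here with the first. A new run starts where a barcode sorts before the one above it, a rule that uses row names only and no measured value. Run 2 held 715 of the 2737 nuclei (26.1%) and run 1 held 430 (15.7%). Runs 3 and 4, with 748 and 844 nuclei, are given beside them where they show how a difference sits in the whole matrix.

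Chromatin accessibility was profiled by scATAC-seq, which tags accessible DNA with a transposase and labels the DNA of each nucleus with a barcode. The 4 libraries came from hearts of wild type zebrafish at 0, 2, 7 and 14 days post amputation, with 1 library per time point, where amputation removed about 20% of the ventricular apex and the study describes uninjured as well as regenerating ventricles. The nonCMs were retained in the supernatant when dissociated ventricles were centrifuged, and how many fish entered a library is not given in the sources used here. No row names its library and the nuclei per time point are not stated in the text of the study, so the runs are not assigned to time points and are called runs throughout. Run 1 against run 2 is 1 set of nuclei against another, with no replicate, and no p-value is given.

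Open chromatin marks promoters and distal enhancers that transcription factors can reach, and cell types differ most at their distal elements. After injury of the zebrafish heart, epicardial cells and fibroblasts (Epi/FBs), endothelial cells (ECs) and macrophages (MCs) among the nonCMs take on activated states, and elements that open in injured tissue are known as tissue regeneration enhancer elements (TREEs). A shift of accessibility in a pool of nuclei can come from new cell numbers or from altered chromatin within a cell type.

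Each value of the matrix was 1 where a peak was called open in a nucleus and 0 otherwise. Run 1 held 670913 open calls and run 2 held 1062570. The median nucleus of run 1 had 1382.5 open peaks (95% interval 1284 to 1509) and that of run 2 had 1294 (1229 to 1365), so depth per nucleus was close. In runs 3 and 4 the medians were 1230 and 898.5. To set runs of unequal size side by side, the level of a peak was expressed as its open calls per 1000000 open calls of the run (CPM), and 1 call was worth 1.49 CPM in run 1 and 0.941 CPM in run 2. Of 6 barcodes found in more than 1 run, 1 was shared by runs 1 and 2. All intervals are exact 95% intervals that cover counting error only.

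Accessibility of most peaks differed little between the runs, and more peaks passed 2-fold on the higher side of run 2 than on the lower side, nearly all of them peaks with few open nuclei in run 1. Of 50394 peaks, 22455 were open in at least 20 nuclei of both runs together and were compared; they carried 85.7% of the open calls of the runs. The log2 ratio of run 2 to run 1, taken after 10 CPM was added to each, had a median of 0.01, and its 5th and 95th percentiles were -0.88 and 1.15. On that scale 1466 peaks (6.53%) were at least 2-fold higher in run 2 and 665 (2.96%) at least 2-fold lower. At least 4-fold differences were seen at 77 peaks on the higher side and 0 on the lower side. The values at the edge were 1.00063 just inside and 0.997632 just outside on the higher side, and -1.00095 and -0.999786 on the lower side, so the line cuts a continuous distribution.

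The higher peaks had a median of 4.47 CPM in run 1 and 26.4 CPM in run 2, and in runs 3 and 4 their medians were 13.7 and 17.8 CPM. The lower peaks had a median of 47.7 CPM in run 1 and 16 CPM in run 2, with 20.6 and 14.3 CPM in runs 3 and 4. The sets were picked by their levels in both run 1 and run 2, beside which runs 3 and 4 are set here. The values of runs 3 and 4 are therefore a description only. The higher peaks took 0.815% of the open calls of run 1 and 4.52% of those of run 2, whereas the lower peaks took 3.86% and 1.34%.

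The direction of the differences depended on how open a peak was. Among peaks open in 20 to 39 nuclei of the runs, 10.4% were higher and 2.61% lower. Among those open in 80 to 159 nuclei, 1.005% were higher and 3.37% lower, and among the 176 peaks open in 320 nuclei or more none passed 2-fold in either direction. The minimum bears on this balance, since it counts both runs together and run 2 is the larger. Of the 1466 higher peaks, 117 had no open nucleus in run 1 and 9 had 20 or more, so nearly all of them needed calls of run 2 to be compared. Of the 665 lower peaks, 282 had 20 or more open nuclei in run 2. Of the 4098 peaks open in at least 100 nuclei of the runs, 14 were higher and 94 lower. The excess of gains over losses was thus seen at sparsely open peaks, and losses were the more frequent at widely open ones.

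**Figure D1:**
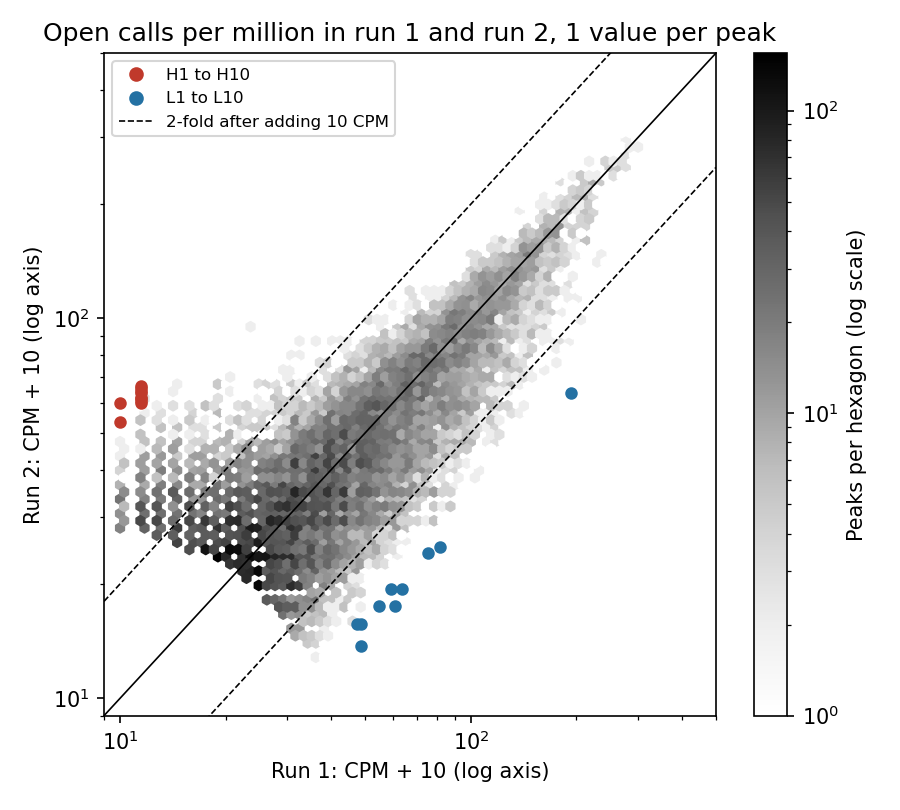
Level of each of the 22455 compared peaks in run 1 (x axis) and run 2 (y axis), as CPM plus 10 on log axes, with the number of peaks per hexagon in grey. The solid line marks equal levels, the dashed lines a 2-fold ratio, red points the 10 highest ratios and blue points the 10 lowest. The red points stand at 0 or 1 open nucleus in run 1.

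The widely open peaks were nearly level. The peak open in the most nuclei of both runs, chr12:22559697-22560702, was open in 278 nuclei of run 1 (64.7%) and 434 of run 2, a log2 ratio of -0.02 (-0.24 to 0.20). The other 4 of the 5 most open peaks of run 1 had log2 ratios between -0.19 and 0.07, and those of run 2 between -0.09 and 0.07. Each of these intervals included 0.

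The peaks with the highest ratios had an open call in 0 or 1 nucleus of run 1, and a missing call does not show that a peak was closed. Coordinates are those of the matrix, whose build is danRer11 per the labels. The first, chr15:17370228-17370602 (H1), was open in 0 nuclei of run 1, 53 of run 2, 21 of run 3 and 28 of run 4. The exact lower limit of its ratio was 8.76-fold, and a floor of 3 calls in run 1 would give 11.2-fold. The second, chr14:41886362-41887171 (H2), was open in 1, 60, 19 and 26 nuclei in the same order, a 37.9-fold ratio of CPM with an interval of 6.54 to 1521 that shows how little a single call fixes it. The next were chr19:29788062-29788654 (H3), with 1 nucleus in run 1 and 59 in run 2, and chr14:49389422-49390094 (H4), with 1 and 58.

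The other peaks among the 10 highest followed the same form. These were chr22:5796428-5796839 (H5), chr12:34335133-34335547 (H6), chr22:30305595-30306244 (H7), chr3:32101175-32101827 (H8), chr20:51288653-51289106 (H9) and chr7:37959217-37959598 (H10), open in 0 or 1 nucleus of run 1 and in 46 to 57 nuclei of run 2. H8 was the other peak with 0 in run 1, with a lower limit of 7.56-fold (9.68-fold against 3 calls). All 10 were open in fewer nuclei of runs 3 and 4 than of run 2, and H7 in the fewest, with 9 and 13. They were picked for being high in run 2, and the runs differ in depth. In CPM, H3 stood at 55.5 in run 2 and 49.9 in run 4.

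The peaks with the lowest ratios kept some open nuclei in run 2. The lowest, chr19:27945436-27945758 (L1), was open in 26 nuclei of run 1, 4 of run 2, 11 of run 3 and 8 of run 4, which was 10.3-fold lower in run 2 (3.57 to 40.6). The next, chr2:42887971-42888438 (L2), was open in 34, 8, 23 and 3 nuclei and was 6.73-fold lower (3.06 to 16.8). The most open of the 10, chr5:24845392-24846113 (L9), was open in 123 nuclei of run 1 (28.6%) and in 57 of run 2, and its ratio of 3.42-fold lower was also the most precise (2.48 to 4.76). The other 7 were chr12:25217431-25217820 (L3), chr1:15300275-15300606 (L4), chr19:8944045-8944377 (L5), chr6:28468350-28468743 (L6), chr14:16332455-16332806 (L7), chr7:38379629-38380132 (L8) and chr10:6240170-6240547 (L10), with 25 to 48 open nuclei in run 1 and 6 to 16 in run 2.

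**Figure D2:**
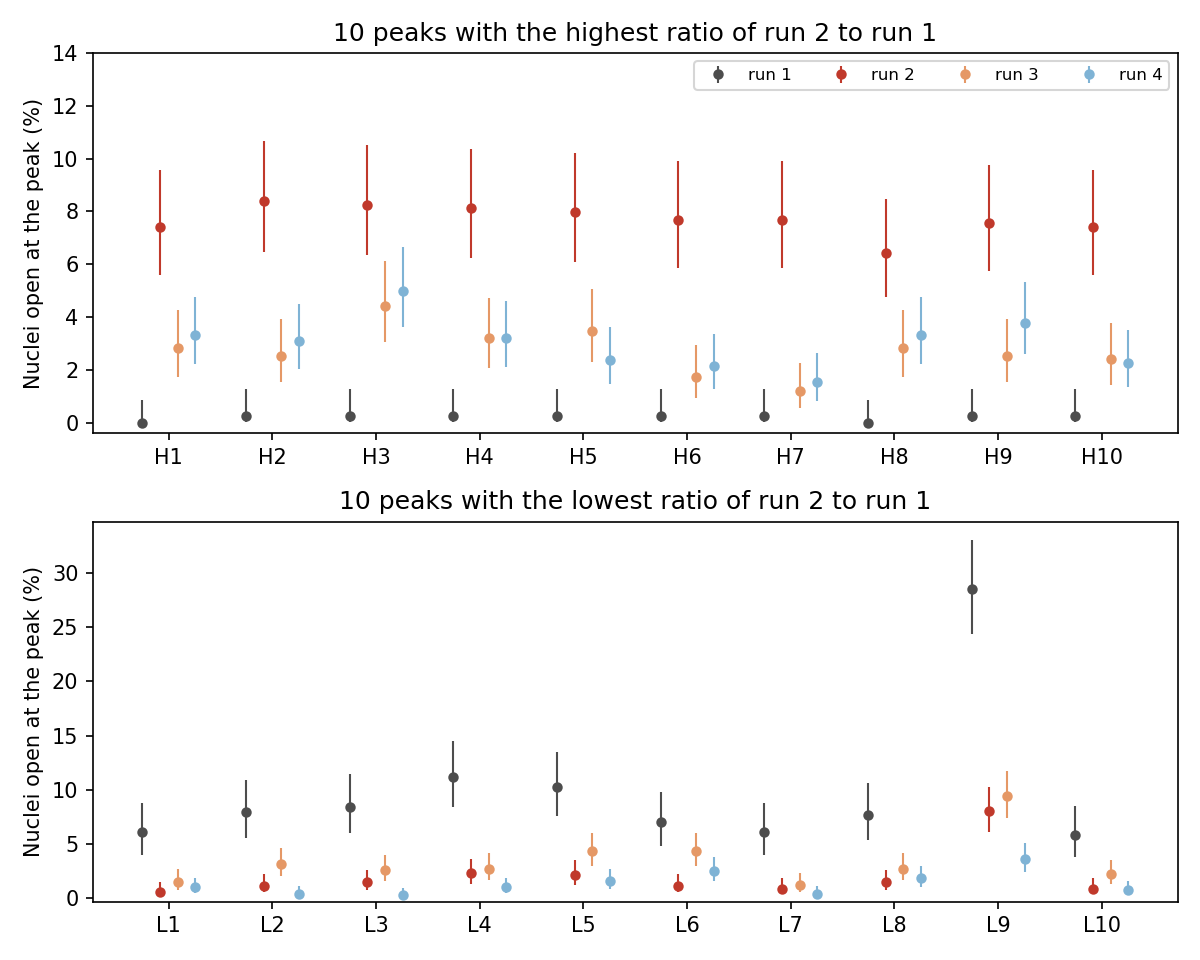
Share of nuclei open (y axis, percent, with exact 95% intervals) in each of the 4 runs at the 10 peaks with the highest ratio of run 2 to run 1 (top) and the 10 with the lowest (bottom). At H1 to H10, picked for being high in run 2, run 2 stands above every other run and run 1 at or next to 0. The intervals of runs 2 and 4 overlap at H3 and H8. At L9 run 1 reaches 28.6%.

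Differences were found on every chromosome. The share of compared peaks that were higher ran from 4.08% on chromosome 25 to 10.5% on chromosome 15, where 88 of 835 peaks were higher. The share that were lower ran from 2.00% on chromosome 8 to 3.99% on chromosome 24. The 2 sets did not differ much in width, with medians of 415 bp for the higher peaks and 436 bp for the lower ones, against 445 bp for all compared peaks.

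To see which nuclei carried the differences, all 2737 nuclei were clustered on the peaks of the odd-numbered chromosomes, and the peaks of the even-numbered chromosomes, which the clustering did not use, were then read out. The clusters carry numbers and no cell type name, because marker loci could not be placed on the matrix. The make-up of the runs was far apart. Clusters 1 and 4 together held 268 of 430 nuclei in run 1 (62.3%, 57.6 to 66.9) and 187 of 715 in run 2 (26.2%, 22.97 to 29.5). Clusters 6, 9 and 13 were grouped because each had at most 2 nuclei in run 1 and at least 5% of run 2. Together they held 2 nuclei in run 1 (0.465%, 0.0564 to 1.67) and 229 in run 2 (32.0%, 28.6 to 35.6).

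Singly, cluster 6 held 2 nuclei of run 1 and 97 of run 2 (13.6%), cluster 9 held 0 and 92 (12.9%), and cluster 13 held 0 and 40 (5.59%). An empty cluster in run 1 had an upper limit of 0.854%. Cluster 9 was found again at a finer setting (12.2% of run 2). It had no counterpart at the broader setting or in clusters made from even-numbered chromosomes, so its bounds are less sure than those of clusters 6 and 13. At the broader setting its nuclei fell together with clusters 2 and 14. That broad cluster held 13.5% of run 1 (10.4 to 17.1) and 18.7% of run 2 (15.9 to 21.8), and these intervals overlap. Clusters 6, 9 and 13 were not equally frequent in runs 3 and 4. Cluster 6 made up 4.95% of run 3 and 11.3% of run 4, whereas cluster 9 made up 4.14% and 1.54% and cluster 13 made up 1.20% and 0.237%. Cluster 2 held 11.4% of run 1 (8.55 to 14.8) and 5.87% of run 2 (4.27 to 7.86). The smallest, cluster 14, held 9 nuclei of run 1 and 0 of run 2. Depth stood beside these shares as follows: in run 2 the median nucleus had 1585 open peaks in cluster 6, 1823 in cluster 9 and 1336 in cluster 13, against 1462 in cluster 1 and 1664 in cluster 4.

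**Figure D3:**
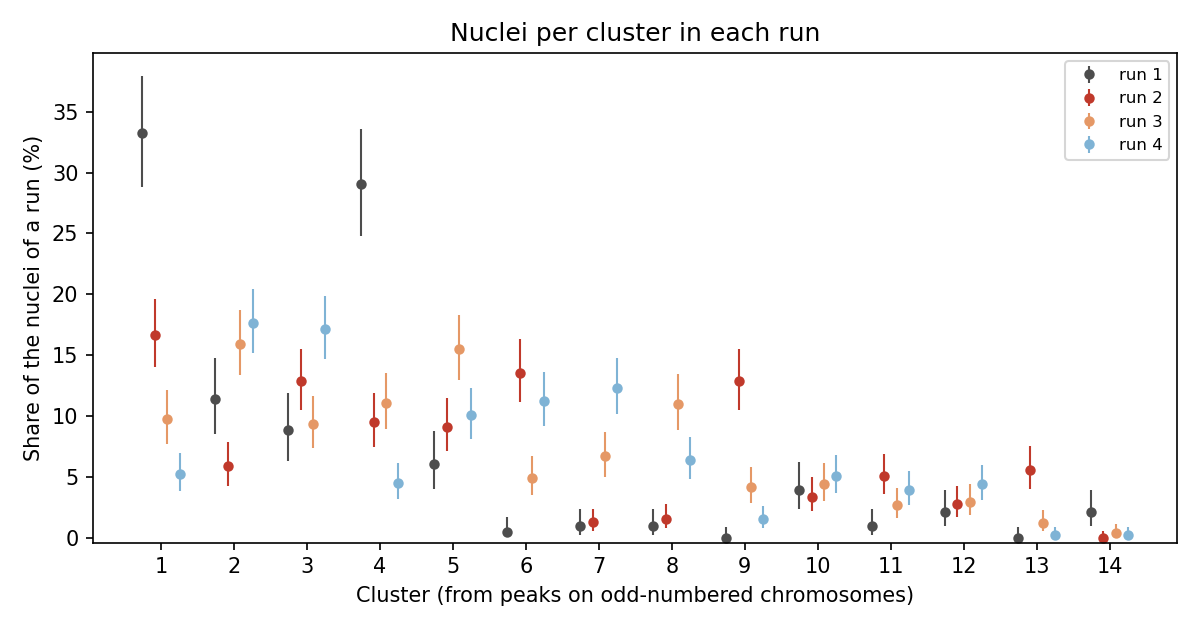
Share of the nuclei of each run (y axis, percent, with exact 95% intervals) in each of 14 clusters made from odd-numbered chromosomes (x axis, numbered from the largest). Clusters 1 and 4 stand highest in run 1, and clusters 6, 9 and 13 are at or next to 0 in run 1 and at 13.6%, 12.9% and 5.59% in run 2.

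On the even-numbered chromosomes 711 of 10267 compared peaks (6.93%) were at least 2-fold higher in run 2 and 297 (2.89%) at least 2-fold lower. Of the run 2 calls in the higher peaks, 40.4% came from cluster 6, 18.6% from cluster 9 and 14.1% from cluster 13. Over all compared peaks these clusters gave 14.6%, 15.3% and 6.15% of the calls of run 2. The cluster with the highest level was cluster 6 for 248 of the higher peaks (34.9%), cluster 13 for 212 (29.8%) and cluster 9 for 123 (17.3%). Over all compared peaks these clusters were highest for 5.55%, 9.40% and 5.49%. For the lower peaks the highest was cluster 4 in 166 cases (55.9%) and cluster 1 in 52 (17.5%), against 8.21% and 7.18% of all compared peaks. Clusters 4 and 1 gave 48.8% and 40.3% of the run 1 calls in the lower peaks, against 36.2% and 34.3% over all compared peaks. Clusters 6, 9 and 13 were grouped for being rare in run 1, and the peaks were picked for their ratio between the runs. A lean of higher peaks to these 3 clusters follows in part from that choice, so the shares are a description. The same applies to the counts without clusters 6, 9 and 13 given next.

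The counts changed with the clusters that were kept, and so did the number of nuclei. Without clusters 6, 9 and 13 the even-numbered chromosomes had 172 higher and 121 lower peaks, and without clusters 1 and 4 they had 1051 and 439. Without all 5 of these clusters, which left 160 nuclei of run 1 and 299 of run 2, they had 649 and 626. Without cluster 1 alone they had 874 and 675. With clusters 1 and 4 left out, run 1 kept 162 nuclei, and fewer calls alone widen the ratios. How much of these higher counts came from that was not tested. Leaving out cluster 6 alone gave 441 and 167, more of a drop than leaving out cluster 9 alone (663 and 268) or cluster 13 alone (667 and 235). When the nuclei of run 2 were weighted so that the clusters held by both runs stood in the proportions of run 1, 110 peaks were higher and 78 lower. Clusters 9 and 13 have no nucleus in run 1 and dropped out of that weighting. Cluster 6, with 2 nuclei in run 1 and 97 in run 2, kept little weight. The weighted counts are therefore a description too, like those without clusters 6, 9 and 13. Cluster 14, with 9 nuclei in run 1 and 0 in run 2, stayed on the side of run 1 only.

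At the highest peaks of even-numbered chromosomes, the open nuclei of run 2 lay mostly in clusters 6, 9 and 13. H2 was open in 32 of 97 nuclei of cluster 6 in run 2 (33.0%, 23.8 to 43.3) and in 22 of 40 of cluster 13 (55.0%, 38.5 to 70.7). In cluster 9 it was open in 3 of 92, and in the remaining clusters in 3 of 486 (0.617%). H4 was open in 37 of 97 nuclei of cluster 6 (38.1%, 28.5 to 48.6) and in 0 of 486 outside the 3 clusters (upper limit 0.756%). H6 was open in 32 of 97 of cluster 6 and in 6 of 486 outside. For all 6 of the highest peaks that lie on even-numbered chromosomes, between 87.7% and 100% of the open nuclei of run 2 were in the 3 clusters. The clusters were grouped for being rare in run 1, and the peaks were picked for their ratio over all nuclei. The values therefore describe these peaks and are no separate evidence.

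The same peaks were open in cluster 6 in runs 3 and 4. H4 was open in 14 of 37 nuclei of cluster 6 in run 3 (37.8%, 22.5 to 55.2) and in 22 of 95 in run 4 (23.2%, 15.1 to 32.9). H6 was open in 7 of 37 (18.9%, 7.96 to 35.2) and in 13 of 95 (13.7%, 7.49 to 22.3). The interval of H6 in run 4 lies below its 33.0% in run 2 (23.8 to 43.3), while the intervals of H4 overlap. Both peaks were picked for run 2. Depth also differed, as the median nucleus of cluster 6 had 1585 open peaks in run 2 and 1016 in run 4. The part of depth in the lower shares of run 4 was not tested. In run 1 the single open nucleus of H2, H4, H6, H7 and H9 was in each case 1 of the 2 nuclei of cluster 6, and that of H5 was not.

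Of the lowest peaks, 5 lie on even-numbered chromosomes and could be read within clusters 1 and 4, which both runs held. In clusters 1 and 4 together, L2 was open in 33 of 268 nuclei of run 1 (12.3%, 8.63 to 16.9) and 6 of 187 of run 2 (3.21%, 1.19 to 6.85). L7 was open in 25 of 268 (9.33%, 6.13 to 13.5) and 5 of 187 (2.67%, 0.874 to 6.13). L3 had the same counts as L2, 33 of 268 and 6 of 187. By cluster, it was open in 17.6% (11.4 to 25.4) and 2.94% (0.358 to 10.2) of cluster 4 in runs 1 and 2, and in 7.69% (3.90 to 13.3) and 3.36% (0.923 to 8.38) of cluster 1, where the intervals overlap. L6 was open in 19 of 268 and 2 of 187, and L10 in 24 of 268 and 6 of 187. The peaks were picked for their ratio over all nuclei, so these values describe them and are no separate evidence.

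Within broader clusters the runs could be compared on more even terms. At a coarser setting that gave 9 clusters, 3 had enough nuclei in both runs. In the largest of them for run 1, which joined clusters 1 and 4 (269 nuclei of run 1 and 187 of run 2), 88 of 5448 peaks of even-numbered chromosomes were higher (1.62%) and 63 lower (1.16%). Its most raised peak, chr6:50565254-50565720, was open in 5 of 269 nuclei of run 1 (1.86%, 0.606 to 4.28) and 25 of 187 of run 2 (13.4%, 8.84 to 19.1). Its most lowered peak, chr22:31039081-31039442, was open in 26 of 269 nuclei of run 1 (9.67%, 6.41 to 13.8) and 3 of 187 of run 2 (1.604%, 0.332 to 4.62).

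Another broad cluster joined clusters 2, 9 and 14 and had the largest shares of peaks past 2-fold among the 3 compared. It held 58 nuclei of run 1 and 134 of run 2, and 186 of its 1761 peaks were higher (10.6%) and 81 lower (4.60%). Of its nuclei, 92 in run 2 and 0 in run 1 belonged to cluster 9, so a difference between its subgroups and one between the runs cannot be told apart. The peak chr8:32359752-32360204 was open in 0 of 58 nuclei of run 1 (upper limit 6.16%) and 34 of 134 of run 2 (25.4%, 18.3 to 33.6), and chr20:20289841-20290526 in 0 and 30 (22.4%, 15.6 to 30.4). On the lower side, a peak that the table of the study described next places at cdon, a cell surface co-receptor of Hedgehog signalling, was open in 15 of 58 nuclei of run 1 (25.9%, 15.3 to 39.0) and 6 of 134 of run 2 (4.48%, 1.66 to 9.49). Median depth in this cluster was 1341 open peaks in run 1 and 1674.5 in run 2, and its part in these counts was not tested beyond the thinning given with the alternatives. In the third broad cluster compared, with 68 and 169 nuclei, 78 of 1476 peaks were higher (5.28%) and 33 lower (2.24%). Open calls of runs 1 and 2 were 63255 and 160624 there, and 86043 and 235916 in the cluster of clusters 2, 9 and 14. In that of clusters 1 and 4 they were 468240 and 320158. Fewer calls alone widen the ratios, so the shares of the 3 broad clusters are not on equal terms.

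Gene names were available for peaks that overlap a table of the study, which lists accessible regions of activated Epi/FBs that overlap TREEs, each with a gene symbol. The positions and symbols of its regions were taken, to name peaks and to read them as a set, and no other value of it was used. The part of the table used here holds 1999 regions, of which 1952 overlapped a peak, and 1950 peaks received 1 of 1528 symbols. A symbol marks the gene paired with the element in that table and not a measured target. The regions were chosen by the study from these same nuclei for their activity, so their direction is not independent evidence. Of these peaks 529 were compared and 1421 were not, being open in fewer than 20 nuclei of the runs. Those compared had a median log2 ratio of 0.39, against 0.01 over all compared peaks. At least 2-fold higher were 132 (24.95%) and at least 2-fold lower 5 (0.945%), against 6.53% and 2.96% of all peaks. The minimum counts both runs together and run 2 is the larger, so sparse peaks can pass it through their calls in run 2. Such peaks are high in run 2 partly by that choice. The 2 sets are not alike in openness, which was not matched. Of the peaks with a symbol 14 of 529 were open in at least 100 nuclei, against 4098 of all 22455. Among all compared peaks open in 20 to 39 nuclei, 10.4% were higher and 2.61% lower.

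Without a minimum, the 1950 peaks together stood at 14711 CPM in run 1 and 22197 CPM in run 2, and at 21850 and 19310 CPM in runs 3 and 4. A nucleus had on average 22.95 of them open in run 1 and 33.0 in run 2. The level differed by cluster much more than by run. On even-numbered chromosomes they stood at 67329 CPM of those chromosomes in cluster 9 and 57176 in cluster 2, against 6537 in cluster 6 and 6552 in cluster 13. Within cluster 2, which both runs held, they stood at 55662 in run 1 and 57185 in run 2. In run 2 cluster 9 gave 5968 of the open calls in these peaks and cluster 2 gave 1447, and cluster 6 gave 512. Of 247 such peaks compared on even-numbered chromosomes 59 were higher and 2 lower, and without clusters 6, 9 and 13 these were 10 and 5, where all compared peaks of those chromosomes went from 711 to 172 higher and from 297 to 121 lower. The peaks with a symbol were thus most open in cluster 9. Among clusters 6, 9 and 13 in run 2, H4 was most often open in cluster 6 and H2 in cluster 13.

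**Figure D4:**
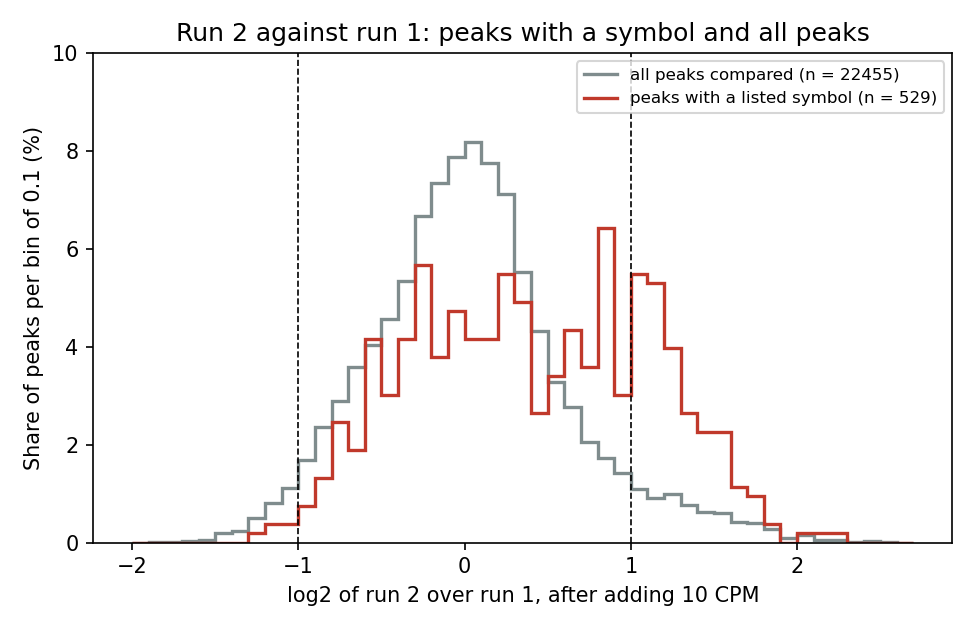
Distribution of the log2 ratio of run 2 to run 1 after adding 10 CPM (x axis), as the share of peaks per bin (y axis, percent), for all 22455 compared peaks (grey) and for the 529 with a symbol from the Epi/FB table (red). Dashed lines mark 2-fold, and 24.95% of the red distribution lies past the right line against 6.53% of the grey. The red peaks were open in fewer nuclei, and the sets were not matched for that.

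Some of the named elements with high ratios are given here. They were chosen after their values were seen and are not a ranking, and other named peaks had ratios as high. Those given were at 0 to 3 nuclei in run 1, so it was their calls in run 2 that took them past the minimum. The peak paired with hsd17b7, an enzyme of sterol and steroid synthesis, was open in 0 nuclei of run 1, 39 of run 2, 7 of run 3 and 3 of run 4, a lower limit of 6.36-fold (8.21-fold against 3 calls), with 59.0% of its run 2 nuclei in cluster 9. The peak of bhlhe40, a transcriptional repressor linked to the circadian clock, was open in 2, 46, 20 and 7 nuclei (14.5-fold, 3.80 to 124). That of id2a, an inhibitor of basic helix-loop-helix factors, was open in 2, 36, 9 and 9 nuclei (11.4-fold, 2.93 to 97.4). Having been picked for run 2, they were open in fewer nuclei of runs 3 and 4.

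For acvrl1, an endothelial receptor of the BMP family, the peak was open in 0, 25, 7 and 4 nuclei (lower limit 3.97-fold, or 5.26-fold against 3 calls). For mcl1b, of the anti-apoptotic Bcl-2 family, it was open in 0, 24, 8 and 1 (lower limit 3.80-fold, or 5.05-fold against 3 calls), and 83.3% of the run 2 nuclei were in clusters 6, 9 and 13. For irf2bp2a, a co-repressor, it was open in 0, 24, 13 and 3 nuclei. Peaks of snai2 and zeb1b, transcription factors of epithelial to mesenchymal transition, went from 2 to 27 and from 1 to 24 nuclei, which gave 8.52-fold (2.14 to 74.0) and 15.2-fold (2.47 to 623). That of bmp5, a ligand of the BMP family, went from 3 to 33 nuclei (6.94-fold, 2.18 to 35.4).

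The 5 named peaks that were lower had between 16 and 37 open nuclei in run 1. The peak of vcana, which encodes the matrix proteoglycan versican, was open in 22 nuclei of run 1, 8 of run 2, 18 of run 3 and 8 of run 4, and its level was 4.36-fold lower in run 2. That of mpp6b, a membrane scaffold protein, was open in 37, 20, 33 and 36 nuclei and was 2.93-fold lower. That of nr2f2, a nuclear receptor with roles in veins and atria, was open in 29, 15, 34 and 14 nuclei and was 3.06-fold lower. The peaks of clrn1 and pdzd11 went from 24 to 13 and from 16 to 7 nuclei.

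Of the lists drawn up for the factors and genes that the study works on, few members had a named peak that was open often enough. In the list of Tead and Stat, 6 of 14 genes had a named peak, 3 of their 7 peaks were compared and 2 were higher, where 24.95% of all compared peaks with a symbol and 6.53% of all compared peaks were higher. The peak of tead3b, a transcription factor of the Hippo pathway, was open in 7 nuclei of run 1, 34 of run 2, 21 of run 3 and 4 of run 4 (log2 ratio 1.04, 0.29 to 1.67). That of tead1a was open in 12, 13, 26 and 9 (log2 ratio -0.33, -1.04 to 0.41), and its interval included 0. The peak of socs3b, a feedback inhibitor of Jak/Stat signalling, was open in 3, 43, 9 and 5 nuclei, which was 9.05-fold higher (2.90 to 45.6). Of its run 2 nuclei, 51.2% were in clusters 6, 9 and 13.

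In the list of injury and regeneration genes, 6 of 16 had a named peak, and 1 of the 3 peaks compared was higher, which is near the 24.95% of peaks with a symbol. This was a peak of mdka, a heparin-binding growth factor known from regenerating zebrafish tissue, open in 0 nuclei of run 1, 27 of run 2, 20 of run 3 and 2 of run 4 (lower limit 4.31-fold, or 5.68-fold against 3 calls). A second peak of mdka was open in 5, 18, 14 and 11 nuclei (log2 ratio 0.63, -0.17 to 1.26). A peak of vegfaa, the vascular endothelial growth factor, was open in 12, 36, 48 and 32 (log2 ratio 0.65, -0.04 to 1.31). Both intervals included 0. In the AP-1 list the 1 peak compared, of mafba, a bZIP factor, was open in 12 and 18 nuclei (log2 ratio -0.05, -0.77 to 0.66). In the list of TNF and NF-kB signalling no peak was compared. Among the cell type markers irf8, a macrophage factor, was the only one with a compared peak, open in 6 nuclei of run 1 and 15 of run 2 (log2 ratio 0.35, -0.44 to 1.02). The cell types could therefore not be checked against their markers.

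Peaks that were higher lay near one another. Of the higher peaks, 34.6% had another higher peak within 25 kb, against 12.1% of all compared peaks. Of the lower peaks, 14.9% had another lower one within 25 kb, against 5.11% of all. A higher peak had a lower one as near in 3.001% of cases. Neighbouring peaks share a locus and are not independent.

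Stretches of at most 100 kb were picked for holding the most higher or the most lower peaks, so their counts are a description. Over all compared peaks 6.53% were higher and 2.96% lower. The stretch with the most higher peaks was chr10:28195141-28261524, where 7 of 13 compared peaks were higher. It holds the peak paired with mir21-1, a copy of the microRNA gene miR-21, which was open in 2 nuclei of run 1, 24 of run 2, 7 of run 3 and 7 of run 4 (log2 ratio 1.33). The strongest in the stretch, chr10:28248613-28248966, was open in 5, 53, 24 and 31 nuclei (log2 ratio 1.78). Other peaks of the stretch differed less: chr10:28201882-28202232 was open in 50 nuclei of run 1 and 81 of run 2 (log2 ratio 0.03), and chr10:28233625-28234235 in 25 and 25 (log2 ratio -0.50). The gain was therefore uneven along the stretch.

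**Figure D5:**
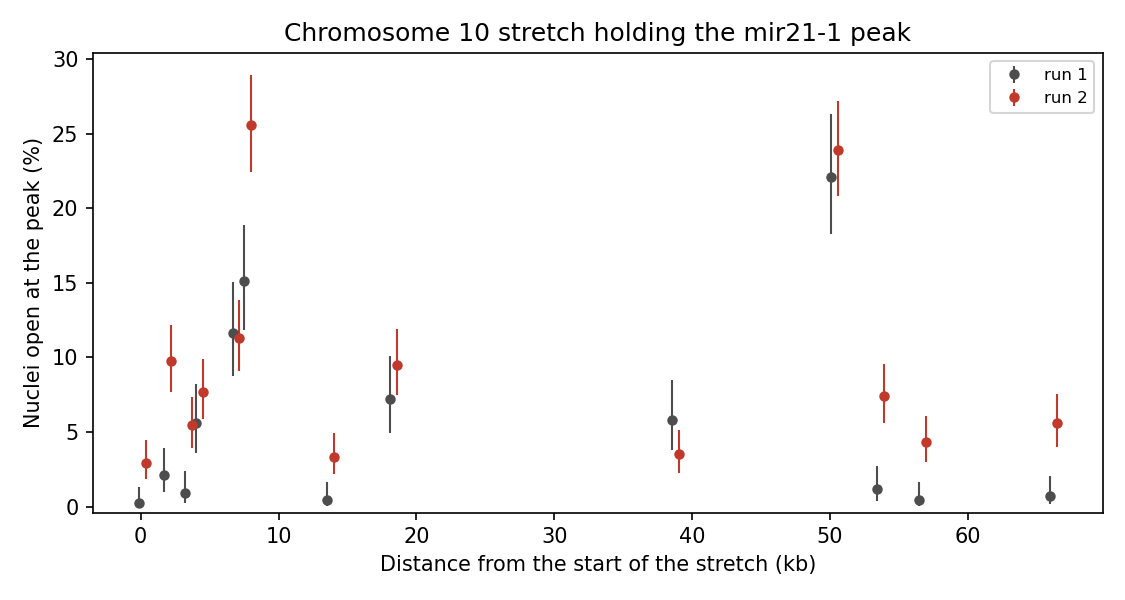
Share of nuclei open in run 1 (grey) and run 2 (red) at the 13 compared peaks of the chromosome 10 stretch (y axis, percent, with exact 95% intervals) against distance from its start (x axis, kb). Of the 13, 7 are at least 2-fold higher in run 2, and the peak near 50 kb is level.

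On chromosome 14, all 6 compared peaks of chr14:40796987-40825545 were higher, from 2 to 44 nuclei at the strongest. Stretches on chromosomes 8, 9, 15 and 16 each had 6 of 8 compared peaks higher, and the median log2 ratio of their peaks lay between 1.23 and 1.39. On chromosome 12, H6 lies near the peak of socs3b. Of 19 compared peaks within 100 kb of the latter and including it, 4 were higher (21.1%), against 6.53% of all compared peaks. These 4 include the socs3b peak and H6, which were already named for their values. The others were chr12:34226838-34227440, open in 8 nuclei of run 1 and 37 of run 2 (log2 ratio 1.03), and chr12:34336616-34337157, open in 6 and 53 (log2 ratio 1.66). The median log2 ratio of the 19 was 0.28.

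Stretches of lower peaks held fewer of them. They too were picked for their counts, and 2.96% of all compared peaks were lower. The highest count was 4 of 9 compared peaks, in chr22:15590478-15683844, and 1 of the other peaks there was open in 4 nuclei of run 1 and 31 of run 2. On chromosome 14, L7 lay in chr14:16328926-16362717 with 2 further peaks, and all 3 were lower. The most open of them went from 92 nuclei of run 1 to 48 of run 2.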

How the data were processed

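Per the labels, FastQC and Cell Ranger ATAC were used with the build danRer11. According to the methods of the study, the authors merged the time points in SnapATAC, filtered nuclei by UMI and removed clusters of cardiomyocytes and putative doublets. No doublet caller was run here. Whether the peaks of the matrix are the MACS peaks of the study is not given in the sources used here. The values the authors deposited, in a unit other than counts, are binarized calls of 0 or 1.

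Runs, CPM, the pseudocount of 10 CPM, the minimum of 20 open nuclei and 2-fold were used as stated. Members and lists were chosen with earlier results of these data known. Named peaks are the 10 highest and 10 lowest log2 ratios and the 5 most open peaks of each run; symbols and stretches were named after their values were seen. Nuclei were clustered on odd-numbered chromosomes (peaks open in at least 10 nuclei, 15 components of latent semantic indexing, 15 neighbours, Leiden resolution 1, or 0.5 for broad clusters; leidenalg 0.10.2, scikit-learn 1.9.0, scipy 1.17.1). Ratio and clustering code was tested on simulated data.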

Additional observations from a re-analysis of the deposited data

How the results depend on the processing

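No replicates exist, so no replicate was left out. No paired analysis was possible because the rows carry no replicate number. Motif searches and marker loci were not run, since neither a genome nor gene positions of the build were used here. The counts of 1466 higher and 665 lower peaks became 2743 and 1881 with a pseudocount of 1 CPM, 163 and 51 with 30 CPM, and 2332 and 1745 with each nucleus thinned to 500 open calls (417 and 689 nuclei kept, same peaks), where fewer calls alone widen the ratios. With a minimum of 1 nucleus 2225 were higher and 827 lower. With at least 100 nuclei 14 were higher and 94 lower, which turns the balance. Shares of nuclei in place of CPM gave 1389 and 867, and leaving out the shared barcodes 1476 and 694. On even-numbered chromosomes 711 and 297 became 110 and 78 with run 2 weighted to the clusters of run 1, and 172 and 121 without clusters 6, 9 and 13, an alternative chosen after seeing the data, as were those on named peaks and broad clusters.

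Of peaks with a symbol, 132 higher and 5 lower became 211 and 27 with 1 CPM, 5 and 0 with 30 CPM, 231 and 11 with a minimum of 1 nucleus, and 0 and 0 with at least 100, where 14 peaks are left. Thinned, 121 were higher and 34 lower. In the broad cluster of clusters 2, 9 and 14, 186 and 81 became 115 and 42 with 30 CPM, and 357 and 298 when thinned. H4 was the only one of the 20 named peaks to change sign, at a log2 ratio of -0.040 with run 2 weighted, where the 6 highest peaks that could be weighted lay between that and 0.82 and the 5 lowest between -1.50 and -0.97. Shares of clusters 6, 13, and 1 with 4 stayed within their intervals at resolutions 0.5 and 2 and with clusters from even-numbered chromosomes. Cluster 9 had a counterpart at resolution 2 alone (12.2% of run 2). The ratio of median depths was 0.936, or 0.946 on even-numbered chromosomes.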
